A study of Saccharomyces cerevisiae with 15 samples.

Results

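The mRNA of budding yeast that made the human kinase IRAK2 was compared with that of yeast that made the human kinase IRAK1. The comparison used the 3 IRAK2 arrays and the 3 IRAK1 arrays, 6 of the 15 arrays of the series, and all 5449 genes measured. The other arrays, titled Control, IRAK4 and IRAK4(KD), also entered the estimate of the spread behind its p-values and standard errors. IRAK1 and IRAK2 are interleukin-1 receptor-associated kinases, which in human cells carry signals from Toll-like and interleukin-1 receptors as parts of an assembly called the Myddosome. IRAK1 has an active kinase domain, whereas IRAK2 is usually counted among the pseudokinases because its kinase domain lacks residues that catalysis normally needs. Yeast has neither the receptors nor the adaptor of this pathway, so the cells offer a background without the human partners.

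In the IRAK2 group, strain YPH499 carried the plasmid pEG(KG) with the human IRAK2 gene, and in the IRAK1 group the same strain carried that plasmid with the human IRAK1 gene. A Control group of 3 arrays, cells with pEG(KG) and no insert, is given beside both as the background. The plasmids were under the yeast GAL1 promoter, which is off in raffinose and on in galactose. Every culture, Control included, spent 18 h at 30 °C in raffinose, was set to an optical density of 0.3 and then had 6 h of galactose before collection. The array has 0 probe sets for human IRAK genes, so the amount of either kinase was not measured, and a difference in its dose cannot be told apart from a difference in its kind. The labels call the 3 arrays of a group biological replicates without saying whether these were separate transformants, so the p-values below measure only the spread between these samples. RNA came from whole cultures, in which fewer responding cells and less RNA per cell cannot be told apart.

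Values are on the log2 scale, so a difference of 1 is a change of 2-fold, and every difference is IRAK2 minus IRAK1, given with its standard error after ±. A gene is called higher or lower in IRAK2 where limma's adjusted p is under 0.05. Levels are compared only within a gene, because probe sets of different genes differ in brightness. The lowest 5% of values on the 9 arrays of IRAK2, IRAK1 and Control lay below 4.97 to 5.45, and a gene near or under that range may be close to the background of the array.

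One array stood apart. Across genes, the IRAK2 arrays correlated with each other at 0.996 to 0.998 and the IRAK1 arrays at 0.968 to 0.994, and IRAK1 replicate 1 lay over 1 log2 unit from the mean of IRAK1 replicates 2 and 3 in 234 genes. The median SD within a group was 0.0784 in IRAK2, 0.181 in IRAK1 and 0.0869 in Control. The numbers of genes called between the kinases are therefore given with and without IRAK1 replicate 1 for most lists. Many single genes are given with all arrays only, and such a value may move without that array. Markers of mating type were also read, although their levels cannot be compared between genes. The a-cell genes STE2, which encodes the alpha-factor receptor, and MFA1 and MFA2, which encode a-factor, read 8.67 to 8.68, 9.24 to 9.31 and 9.54 to 9.62 in IRAK2. In IRAK1 they read 8.08 to 8.47, 9.05 to 9.88 and 8.76 to 9.85. MFA1 and MFA2 were not called (-0.26 and 0.09), but were called lower without IRAK1 replicate 1 (-0.49 and -0.27). Of the 7 a-cell markers, STE2 and BAR1 (0.60 ± 0.13) were called higher in IRAK2, ASG7 (-0.88 ± 0.12) lower and 4 were not called. The counts without IRAK1 replicate 1 were 2 higher and 4 lower. The alpha-cell gene MF(ALPHA)1 stayed at the bottom of the scale, at 2.90 to 3.16 in IRAK2 and 2.62 to 3.16 in IRAK1. The alpha-agglutinin gene SAG1 did not, and was called lower in IRAK2 at -0.68 ± 0.14. AFB1, another of the 5 alpha-cell or diploid markers, was called higher in IRAK2 (0.79 ± 0.12), and the other 3 were not called.

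Of the 5449 genes, 3260 (59.8%) were called between IRAK2 and IRAK1. Of these, 1667 (30.6% of all genes) were higher in IRAK2 and 1593 (29.2% of all genes) were lower. The larger changes were mostly downward: 176 genes (3.23%) were called and at least 2-fold higher in IRAK2, and 385 (7.07%) were called and at least 2-fold lower. Without IRAK1 replicate 1, 3327 genes (61.1%) were called, 1779 (32.6%) higher and 1548 (28.4%) lower, and 153 (2.81%) and 379 (6.96%) were at least 2-fold higher and lower. Both fits called 2963 genes (54.4%) in the same direction and 0 in opposite directions. The arrays of the 2 groups did not overlap in 3381 genes (62.0%): the 3 IRAK2 arrays lay wholly above the 3 IRAK1 arrays in 1706 genes (31.3%) and wholly below them in 1675 (30.7%). A single gene tested on 3 against 3 arrays by exact permutation cannot give a two-sided p under 0.1, so the calls rest on the fit across all genes and 15 arrays.

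The side on which Control lay was recorded for each gene that differed at least 2-fold. The Control mean was closer to IRAK2 in 545 of these 561 genes and closer to IRAK1 in 16, and without IRAK1 replicate 1 in 521 and 11 of 532. Against Control itself, IRAK2 had 501 genes called (9.19%) and IRAK1 had 3201 (58.7%), comparisons that share the Control arrays. Of the IRAK2 calls 317 (5.82% of all genes) were higher and 184 (3.38% of all genes) lower. Of the IRAK1 calls 1665 (30.6% of all genes) were higher and 1536 (28.2% of all genes) lower. With IRAK1 replicate 1 out of the fit, and so out of the estimate of the spread, IRAK2 had 1180 calls (21.7%). IRAK1 then had 3318 calls (60.9%), of which 1641 (30.1% of all genes) were higher. At least 2-fold, 7 genes were called higher and 6 lower in IRAK2 than in Control, and 358 (6.57%) were higher and 139 (2.55%) lower in IRAK1 than in Control, or 368 (6.75%) and 148 (2.72%) without IRAK1 replicate 1.

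**Figure D1:**
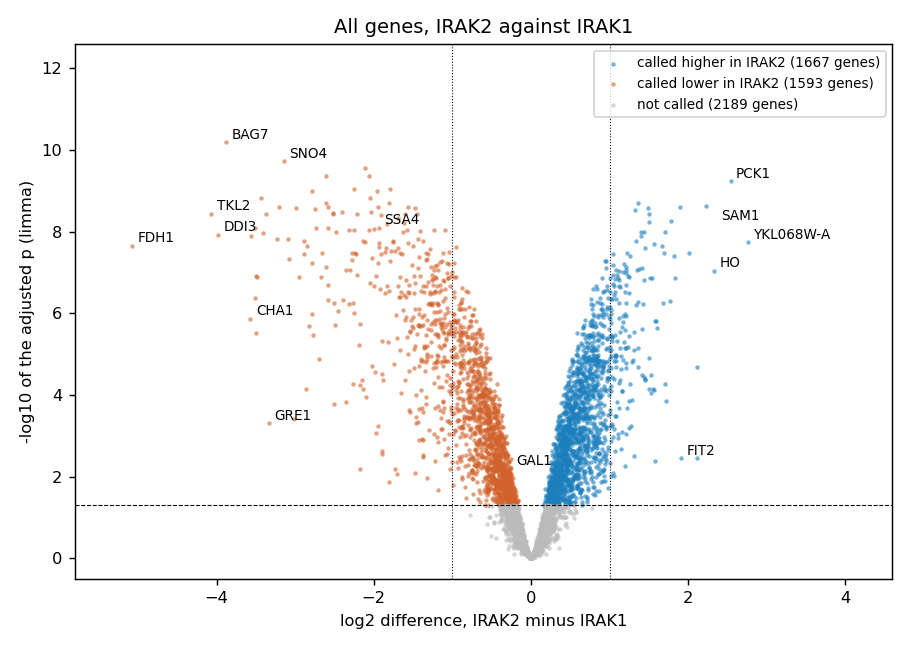
Each point is 1 of the 5449 genes, with the log2 difference between IRAK2 and IRAK1 on the x axis and the negative log10 of limma's adjusted p on the y axis. The dashed line marks an adjusted p of 0.05 and the dotted lines a change of 2-fold. The left arm reaches -5.08 (FDH1) and the right arm 2.76 (YKL068W-A), and 385 called genes lie left of the dotted lines against 176 to the right.

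The lowest value in IRAK2 relative to IRAK1 was that of FDH1 (YOR388C), which encodes formate dehydrogenase, an enzyme that oxidises formate to carbon dioxide. FDH1 read 9.22, 7.83 and 8.69 in IRAK2 and 13.93, 13.55 and 13.49 in IRAK1, with 8.26 to 9.57 in Control. The IRAK2 and Control arrays shared 1 range, and all 3 IRAK1 arrays stood far above it. The difference was -5.08 ± 0.33 (limma adjusted p = 2.22e-08), 33.7-fold lower in IRAK2, and -4.94 ± 0.36 without IRAK1 replicate 1.

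TKL2 (YBR117C), the minor transketolase of the pentose phosphate pathway, read 7.52, 7.34 and 7.31 in IRAK2 and 10.80, 11.97 and 11.60 in IRAK1. Its difference was -4.07 ± 0.22, and -4.40 without IRAK1 replicate 1. BAG7 (YOR134W) read 4.58, 4.32 and 4.40 in IRAK2 and 8.53, 8.29 and 8.10 in IRAK1, a difference of -3.87 ± 0.12. Its IRAK2 values lay at the low end of the arrays, and below Control (5.36 to 5.60), from which IRAK2 was called lower by -1.04. Among the 12 genes lowest in IRAK2, BAG7 and FMP45 were the ones also called lower in IRAK2 than in Control. FMP45 (YDL222C), a membrane protein of the Sur7 family that sits in the cell cortex, differed by -3.43 ± 0.16 between the kinases and by -0.70 from Control.

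CHA1 (YCL064C), the catabolic serine and threonine deaminase, read 6.84, 6.94 and 6.89 in IRAK2 and 9.15, 11.05 and 11.17 in IRAK1. IRAK1 replicate 1 lay between the other IRAK1 arrays and the IRAK2 arrays, and the difference of -3.57 ± 0.36 became -4.22 without it. PMA2 (YPL036W), a second plasma membrane proton pump beside the main pump Pma1, read 6.36 to 6.84 in IRAK2 and 9.18 to 10.63 in IRAK1 (-3.49 ± 0.28). HEF3 (YNL014W), a second copy of the translation elongation factor eEF3, read 7.34 to 7.68 in IRAK2 and 9.64 to 11.68 in IRAK1 (-3.50 ± 0.38). In both genes the lowest IRAK1 value was that of replicate 1, and it still lay above every IRAK2 array.

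RTN2 (YDL204W), a reticulon that shapes the endoplasmic reticulum, differed by -3.56 ± 0.22, and HBT1 (YDL223C), a protein needed for the shape of mating projections, by -3.51 ± 0.21. PRR2 (YDL214C), a protein kinase linked to the pheromone response, read 5.20, 5.10 and 5.26 in IRAK2 and 9.80, 8.12 and 8.15 in IRAK1. Its IRAK2 values lay at the low end of the arrays. Here IRAK1 replicate 1 was the highest array, and the difference of -3.51 ± 0.31 shrank to -2.95 without it. DCI1 (YOR180C), a peroxisomal protein related to enoyl-CoA isomerases, behaved alike, at -3.49 ± 0.28 with replicate 1 and -3.06 without it. DDI3 (YFL061W), which is induced by DNA-alkylating agents, differed by -3.98 ± 0.25, but its probe set may match several transcripts and cannot tell DDI3 from its near-identical copy DDI2.

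The highest difference belonged to YKL068W-A, a small open reading frame with no gene name, which read 8.89, 8.76 and 8.65 in IRAK2 and 5.65, 6.18 and 6.19 in IRAK1 (2.76 ± 0.18, 6.79-fold higher). PCK1 (YKR097W), phosphoenolpyruvate carboxykinase and the first committed enzyme of gluconeogenesis, read 11.30, 11.56 and 11.47 in IRAK2 and 9.01, 8.73 and 8.97 in IRAK1, with 10.68 to 10.78 in Control. Control lay between the kinases: PCK1 was called higher in IRAK2 than in Control (0.71) and lower in IRAK1 than in Control (-1.83). Between IRAK2 and IRAK1 it differed by 2.54 ± 0.11 (limma adjusted p = 5.77e-10), and by 2.59 without IRAK1 replicate 1.

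HO (YDL227C), the endonuclease gene of mating-type switching, read 9.13, 9.0 and 9.0 in IRAK2 and 6.16, 7.19 and 6.78 in IRAK1 (2.33 ± 0.18). Both genes for S-adenosylmethionine synthetase, which makes the methyl donor of the cell, were among the 12 highest. SAM1 (YLR180W) read 9.97 to 10.22 in IRAK2 and 7.68 to 8.03 in IRAK1 (2.23 ± 0.11), and SAM2 (YDR502C) read 10.12 to 10.34 in IRAK2 and 8.05 to 8.56 in IRAK1 (1.83 ± 0.15). The sequences of the pair are close, so each probe set may read some of the other transcript. In both genes the IRAK2 difference from Control was -0.22 and was not called.

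COX17 (YLL009C), which delivers copper to cytochrome c oxidase, read 11.40, 11.39 and 11.51 in IRAK2 and 9.38, 9.45 and 9.78 in IRAK1 (1.90 ± 0.10). UPS2 (YLR168C), which moves lipid between the mitochondrial membranes, read 11.14 to 11.24 in IRAK2 and 8.83 to 9.58 in IRAK1 (2.02 ± 0.14). AIM33 (YML087C), which lies outside the well-studied pathways, read 8.80 to 8.93 in IRAK2 and 7.0 to 7.18 in IRAK1 (1.78 ± 0.10). The short reading frames YMR230W-A and YOR072W-B completed the 12 with FET3 and FIT2, which are described with the iron genes. YMR230W-A read 3.84 in IRAK1 replicate 1 and 6.39 and 7.0 in replicates 2 and 3, so its difference of 2.11 ± 0.53 fell to 1.16 without replicate 1. The probe set of YOR072W-B (1.82 ± 0.13) may match several transcripts.

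**Figure D2:**
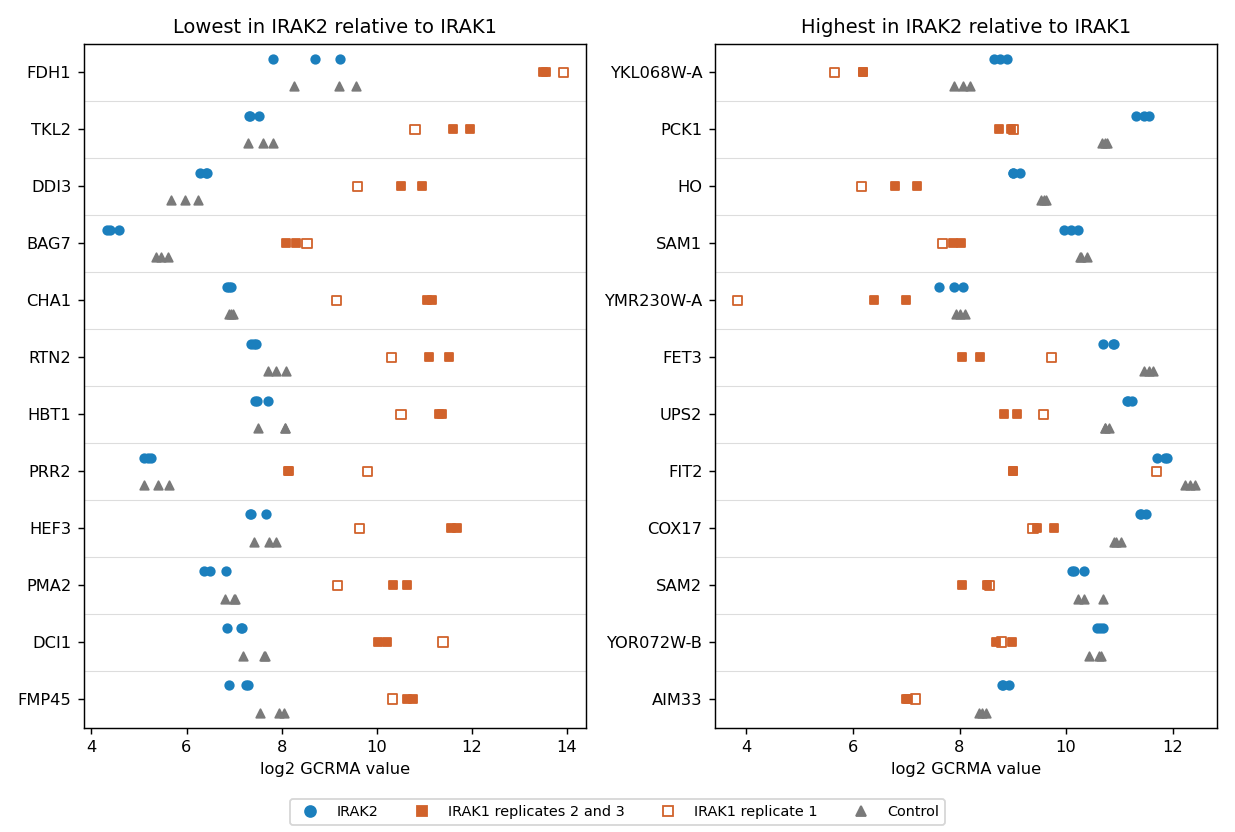
Log2 values on each array for the 12 genes lowest (left) and the 12 highest (right) in IRAK2 relative to IRAK1, with IRAK2 as circles, IRAK1 as squares (replicate 1 open) and Control as triangles. The IRAK2 circles and the Control triangles lie close together in most rows, while IRAK1 stands apart, and the open square leaves the filled ones in FIT2, YMR230W-A, HEF3 and CHA1.

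The general stress response came first among the gene lists. Msn2 and Msn4 are the transcription factors that switch on a common set of protective genes under many stresses, and protein kinase A holds them in check. Of the 47 measured Msn2/Msn4 genes, limma called 45 lower in IRAK2 and 0 higher, against 29.2% and 30.6% of all genes, and 39 of them were at least 2-fold lower. The same shares over all genes are the background of every list below. The median difference was -1.75, and 0.01 over all genes. Without IRAK1 replicate 1 the count was again 45, with a median of -1.73. TPS3 and CYC7 were the members not called. Against Control, 3 members were higher and 11 lower in IRAK2 (median -0.16), or 7 and 16 without IRAK1 replicate 1 in the fit, and 45 were higher and 0 lower in IRAK1 (median 1.49). On every array the list's median distance from Control was -0.14, -0.22 and -0.14 in IRAK2 and 1.42, 1.56 and 1.39 in IRAK1, so replicate 1 did not stand apart here.

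CTT1, the cytosolic catalase, read 8.47, 8.66 and 8.61 in IRAK2 and 10.58, 11.36 and 11.25 in IRAK1 (-2.48 ± 0.15). HSP12, a small membrane-protecting protein, was near the top of the scale in both groups, at 13.50 to 13.55 in IRAK2 and 13.77 to 13.97 in IRAK1, and differed by -0.31 ± 0.07. Of 9 hydrophilins and desiccation genes, 8 were lower in IRAK2 and 1 higher, with and without IRAK1 replicate 1. GRE1, a hydrophilin induced by drying, read 8.01, 8.41 and 8.24 in IRAK2 and 9.31, 12.93 and 12.44 in IRAK1, and its difference moved between -3.34 ± 0.64 with replicate 1 and -4.46 without it. SPG1, needed for survival in stationary phase, did not depend on that array: it read 8.80 to 9.27 in IRAK2 and 12.42 to 12.58 in IRAK1 (-3.38 ± 0.18). The member higher in IRAK2 was NOP6 (0.74 ± 0.20, and 0.43 without replicate 1), which is also a ribosome biogenesis factor.

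Storage carbohydrates followed the stress genes. Several lists share members, such as GRE1 and CTT1 among the stress lists and TPS3 here, so their counts are not independent. Of 20 genes of trehalose and glycogen metabolism, 18 were lower in IRAK2 and 0 higher (median -1.45), with the same counts and a median of -1.31 without IRAK1 replicate 1. GSY1, a glycogen synthase, read 8.15, 8.27 and 8.34 in IRAK2 and 10.37, 10.44 and 10.29 in IRAK1 (-2.11 ± 0.08). PGM2, the main phosphoglucomutase, differed by -2.05 ± 0.08, GLG1, which primes glycogen chains, by -2.03 ± 0.14 and GPH1, which breaks glycogen down, by -1.94 ± 0.10. So genes of glycogen making and of glycogen breakdown were lower together. GSY1, PGM2 and GPH1 were also called lower in IRAK2 than in Control, by -0.42, -0.62 and -0.40, and higher in IRAK1 than in Control, by 1.69, 1.44 and 1.54. Over the list, 0 genes were called higher and 9 lower in IRAK2 than in Control.

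Hog1 is the kinase of the osmotic stress pathway. Of 23 osmotic stress genes, 20 were lower in IRAK2 and 0 higher (median -0.85), and without IRAK1 replicate 1, 18 were lower and 1 higher. The lowest after GRE1 and CTT1 were PAI3, an inhibitor of the vacuolar protease Pep4 (-2.09 ± 0.34), and ALD3, an aldehyde dehydrogenase (-1.90 ± 0.27). Without IRAK1 replicate 1, PAI3 and ALD3 differed by -2.70 and -2.36. GPP2, which makes glycerol, the osmolyte of yeast, read 10.57 to 10.72 in IRAK2 and 9.95 to 10.62 in IRAK1 and was not called (0.31 ± 0.16).

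Yap1 drives the response to oxidants. Of 33 oxidative stress genes, 23 were lower in IRAK2 and 1 higher, and without IRAK1 replicate 1, 26 and 2. TSA2, a peroxiredoxin, read 5.92, 6.13 and 6.33 in IRAK2 and 7.13, 10.33 and 9.97 in IRAK1. Replicate 1 lay nearer to the IRAK2 arrays than to its own group, and the difference was -3.02 ± 0.57 with it and -4.03 without it. ECM4, a glutathione transferase, read 8.70 to 9.03 in IRAK2 and 10.91 to 11.28 in IRAK1 (-2.21 ± 0.12), and CTA1, the peroxisomal catalase, differed by -2.65 ± 0.18. TRR1, the cytosolic thioredoxin reductase, was the member higher in IRAK2 (0.29 ± 0.12), a call that ended when any 1 IRAK2 replicate, or IRAK1 replicate 2 or 3, was left out.

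The heat shock list divided. Hsf1 is the factor that raises chaperones when proteins misfold, and of 30 chaperone genes 17 were lower in IRAK2 than in IRAK1 and 5 higher (median -0.33), with the same counts without IRAK1 replicate 1 (median -0.40). Both groups lay above Control: 24 of the 30 were called higher in IRAK2 than in Control and 26 in IRAK1 than in Control, with 0 lower in either and medians of 0.69 and 0.90. SSA4, a stress-induced Hsp70, read 10.63, 10.70 and 10.43 in IRAK2 and 12.22, 12.76 and 12.58 in IRAK1, with 8.24 to 8.36 in Control. The 3 groups formed separate steps, IRAK1 highest and Control lowest. SSA4 differed by -1.93 ± 0.11 between the kinases, and by 2.27 and 4.21 from Control in IRAK2 and IRAK1. BTN2, which gathers misfolded proteins for sorting, read 11.08 to 11.29 in IRAK2 and 11.58 to 12.41 in IRAK1, with 8.91 to 9.39 in Control (-0.91 ± 0.18 between the kinases).

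SSA3, another induced Hsp70, differed by -2.83 ± 0.30, HSP26 and HSP42, the small heat shock proteins, by -2.17 ± 0.23 and -1.41 ± 0.11. Without IRAK1 replicate 1, HSP26 differed by -2.54. The 5 chaperone genes higher in IRAK2 were SSA2, HSP60, HSP10, SSC1 and CDC37. HSP60, HSP10 and SSC1 act inside mitochondria, SSA2 is a constitutive Hsp70 and CDC37 brings kinases to Hsp90. The largest of these differences was 0.36 ± 0.07, for HSP10, which read 13.21, 13.29 and 13.30 in IRAK2 and 12.85, 12.84 and 13.03 in IRAK1. HSP10 was called higher in IRAK2 than in Control (0.48) and not in IRAK1 (0.13). Of the 17 called lower and the 5 called higher, 5 and 0 were at least 2-fold.

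Of 41 proteasome genes, 19 were lower in IRAK2, 2 higher and 20 not called, and without IRAK1 replicate 1, 16 were lower and 2 higher. RPN4, the transcription factor that raises proteasome genes, read 10.42 to 10.47 in IRAK2 and 11.04 to 11.34 in IRAK1 (-0.73 ± 0.10) and was above Control in both, by 0.33 and 1.06. BLM10, a proteasome activator, differed by -1.01 ± 0.08 and PUP1, a catalytic core subunit, by -0.65 ± 0.08, and the other called members moved less than BLM10. Of 30 genes of autophagy and vacuolar proteolysis, 25 were lower and 1 higher (median -0.75), with 26 and 1 without IRAK1 replicate 1. ATG34, a receptor that carries cargo into the vacuole, read 8.57, 8.48 and 8.68 in IRAK2 and 10.47, 10.59 and 10.64 in IRAK1 (-1.99 ± 0.12). PRB1, the vacuolar protease B, read 9.61 to 9.66 in IRAK2 and 11.54 to 11.67 in IRAK1 (-1.96 ± 0.09). ATG10, an enzyme of Atg12 conjugation, was higher in IRAK2 (0.84 ± 0.12). ATG29 was lower, at -1.40 ± 0.22, with IRAK2 values of 4.17 to 4.43 at the low end of the arrays.

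Fatty acid oxidation takes place in yeast peroxisomes and is held down by good fermentable sugars. Of 28 peroxisomal genes, 25 were lower in IRAK2 and 1 higher (median -1.21), and without IRAK1 replicate 1, 24 and 1 (median -1.04). POT1, the thiolase of beta-oxidation, read 9.74, 9.19 and 9.95 in IRAK2 and 13.21, 12.64 and 12.71 in IRAK1 (-3.23 ± 0.20). POX1, the first oxidase of the pathway, read 9.10 to 9.82 in IRAK2 and 11.86 to 12.72 in IRAK1 (-2.67 ± 0.21), and IDP3, which supplies reducing power inside peroxisomes, differed by -2.84 ± 0.19. In POT1, POX1 and IDP3 the highest array was IRAK1 replicate 1, and without it the differences were -3.04, -2.40 and -2.58. POT1 and POX1 were also the 2 members called lower in IRAK2 than in Control, by -0.77 and -0.72, a count that was 13 without IRAK1 replicate 1 in the fit. PEX21, a factor of protein import into peroxisomes, was the member higher in IRAK2 (1.00 ± 0.10).

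The gluconeogenesis and glyoxylate list moved in both directions. Of 23 members, 5 were higher in IRAK2, namely PCK1, FBP1, ICL1, MLS1 and SFC1, and 11 were lower. Without IRAK1 replicate 1, 8 were higher and 10 lower. PCK1 and FBP1 are the enzymes particular to gluconeogenesis, ICL1 and MLS1 make up the glyoxylate shunt and SFC1 is a mitochondrial carrier for succinate and fumarate. ADY2, an acetate transporter, read 10.65, 9.84 and 10.34 in IRAK2 and 13.51, 12.89 and 13.08 in IRAK1 (-2.88 ± 0.20), and ACS1, acetyl-CoA synthetase, read 11.61 to 12.09 in IRAK2 and 13.31 to 13.82 in IRAK1 (-1.66 ± 0.14). CIT3, a citrate synthase of mitochondria, differed by -2.50 ± 0.26, and by -2.08 without IRAK1 replicate 1. ADH2, the alcohol dehydrogenase that consumes ethanol, differed by -0.69 ± 0.12. Against Control, ADY2 and ACS1 were called in IRAK1 (2.58 and 1.45) and not in IRAK2 (-0.30 and -0.21).

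Respiration genes were higher in IRAK2. Of 35 genes of the respiratory chain and ATP synthase, 27 were higher and 2 lower (median 0.49), and without IRAK1 replicate 1, 32 and 2 (median 0.59). CYC1, the main cytochrome c, read 12.43, 12.49 and 12.43 in IRAK2 and 11.10, 10.58 and 10.68 in IRAK1 (1.66 ± 0.11), and ATP20, an ATP synthase subunit, read 12.33 to 12.45 in IRAK2 and 10.82 to 10.92 in IRAK1 (1.5 ± 0.09). The 2 genes lower in IRAK2 were COX5B, the low-oxygen form of a cytochrome oxidase subunit (-1.0 ± 0.13), and NDE2, an external NADH dehydrogenase (-2.74 ± 0.14). Against Control the list had 4 higher and 0 lower in IRAK2 (10 and 0 without IRAK1 replicate 1 in the fit), and 3 higher and 29 lower in IRAK1. The median distance from Control was -0.16 on IRAK1 replicate 1 and -0.65 and -0.53 on replicates 2 and 3, so the respiratory genes of replicate 1 lay closer to IRAK2, whose arrays were at 0.08, 0.08 and 0.11.

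Among 20 genes of the tricarboxylic acid cycle, 10 were higher in IRAK2 and 3 lower, and without IRAK1 replicate 1, 13 and 1. The number higher was 6 without IRAK2 replicate 2, 6 without IRAK1 replicate 2 and 4 without IRAK1 replicate 3, so it rested on single arrays. IDH1 and IDH2, the 2 subunits of the mitochondrial isocitrate dehydrogenase, moved together. IDH1 read 11.61 to 11.72 in IRAK2 and 9.96 to 10.91 in IRAK1 (1.37 ± 0.18), and IDH2 read 11.84 to 11.90 in IRAK2 and 10.02 to 11.16 in IRAK1 (1.44 ± 0.21). In both the highest IRAK1 value was that of replicate 1, and the differences were 1.67 and 1.80 without it. FUM1, fumarase, read 12.58 to 12.63 in IRAK2 and 12.74, 11.56 and 11.58 in IRAK1, so the groups overlapped through replicate 1 (0.64 ± 0.22 with it and 1.03 without it). The call of FUM1 ended without IRAK2 replicate 3, IRAK1 replicate 2 or IRAK1 replicate 3. LSC2, a succinyl-CoA ligase subunit, was lower in IRAK2 (-0.64 ± 0.14).

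Of 20 glycolysis genes, 11 were lower in IRAK2 and 3 higher, and without IRAK1 replicate 1, 14 and 3. ENO1, an enolase, read 11.57, 11.59 and 11.62 in IRAK2 and 12.53, 13.31 and 13.27 in IRAK1 (-1.44 ± 0.15). TDH1, a glyceraldehyde-3-phosphate dehydrogenase isoform, differed by -1.43 ± 0.25, HXK1, a hexokinase, by -1.24 ± 0.11 and GLK1, glucokinase, by -1.01 ± 0.08. HXK2, PDC5 and ADH1 were the members higher in IRAK2. ADH1, the main fermentative alcohol dehydrogenase, read 13.31 to 13.35 in IRAK2 and 13.43, 12.36 and 12.32 in IRAK1, so replicate 1 lay with the IRAK2 arrays (0.63 ± 0.20 with it and 1.0 without it), and the call ended without IRAK1 replicate 2 (0.46) or 3 (0.44). Paralogs such as ENO1 and ENO2 are similar in sequence, and a probe set may read part of the other copy.

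Of 17 hexose transporters, 11 were lower in IRAK2 and 0 higher, and 10 and 0 without IRAK1 replicate 1. HXT5, a transporter made in slow growth, read 9.63 to 9.88 in IRAK2 and 10.76 to 11.40 in IRAK1 (-1.35 ± 0.16). HXT2, which takes up glucose at low concentration, read 11.79, 11.20 and 11.42 in IRAK2 and 13.14, 12.20 and 12.17 in IRAK1 (-1.03 ± 0.29, and -0.72 without replicate 1). HXT8 (-1.49 ± 0.18) and HXT11 (-1.10 ± 0.19) were lower too, but the IRAK2 values of HXT8 lay at 5.18 to 5.27 and those of HXT11 at 4.15 to 4.65, the low end of the arrays. SUC2, invertase, which is no member of that list, was not called (-0.25 ± 0.11).

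The galactose genes bear on the design, because the GAL1 promoter drove both kinases. Of 9 galactose genes, 8 were lower in IRAK2 and 0 were at least 2-fold changed, and without IRAK1 replicate 1, 8 were lower and 1 higher. GAL1, galactokinase, read 13.34, 13.20 and 13.14 in IRAK2 and 13.49, 13.46 and 13.48 in IRAK1, with 13.37 to 13.43 in Control (-0.25 ± 0.07, and -0.24 without replicate 1). These values were near the top of the scale, and whether that narrowed the difference was not tested. GAL10 differed by -0.28 ± 0.07, GAL7 by -0.43 ± 0.06, the galactose permease GAL2 by -0.72 ± 0.08 and the repressor GAL80 by -0.36 ± 0.10. GAL3, the galactose sensor, read 10.27 to 10.34 in IRAK2 and 9.89 to 10.52 in IRAK1 and was not called (0.15 ± 0.13), but was called higher without replicate 1 (0.34). The part of these promoter levels in the other differences was not tested. Of 5 measured auxotrophic marker genes, URA3 (0.25 ± 0.08) and LYS2 (0.24 ± 0.09) were higher in IRAK2, ADE2 was lower (-0.66 ± 0.12) and LEU2 was not called (0.23 ± 0.10). Without IRAK1 replicate 1 the call of LYS2 ended (0.17) and LEU2 was called higher (0.28), and LYS2 also lost its call without IRAK2 replicate 1 or 2.

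The list of sugar repression and signalling kinases had 18 of 31 members lower in IRAK2 and 3 higher, and 17 and 3 without IRAK1 replicate 1. GIP2, a regulatory subunit of the phosphatase Glc7 that acts on glycogen, read 5.88, 5.54 and 5.72 in IRAK2 and 9.20, 9.05 and 8.52 in IRAK1 (-3.21 ± 0.16). YAK1, a kinase opposed by protein kinase A, read 8.94 to 8.96 in IRAK2 and up to 10.60 in IRAK1, with no overlap (-1.28 ± 0.12). FMP48, a putative kinase, differed by -2.73 ± 0.16. MIG3, a repressor related to Mig1, differed by -1.55 ± 0.27, and by -2.01 without IRAK1 replicate 1. SNF4, TPK3 and PDE2 were higher in IRAK2. PDE2, the high-affinity cyclic AMP phosphodiesterase, read 10.11 to 10.24 in IRAK2 and 9.31 to 9.68 in IRAK1 (0.69 ± 0.13), while TPK2, a catalytic subunit of protein kinase A, was lower (-1.08 ± 0.12).

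**Figure D3:**
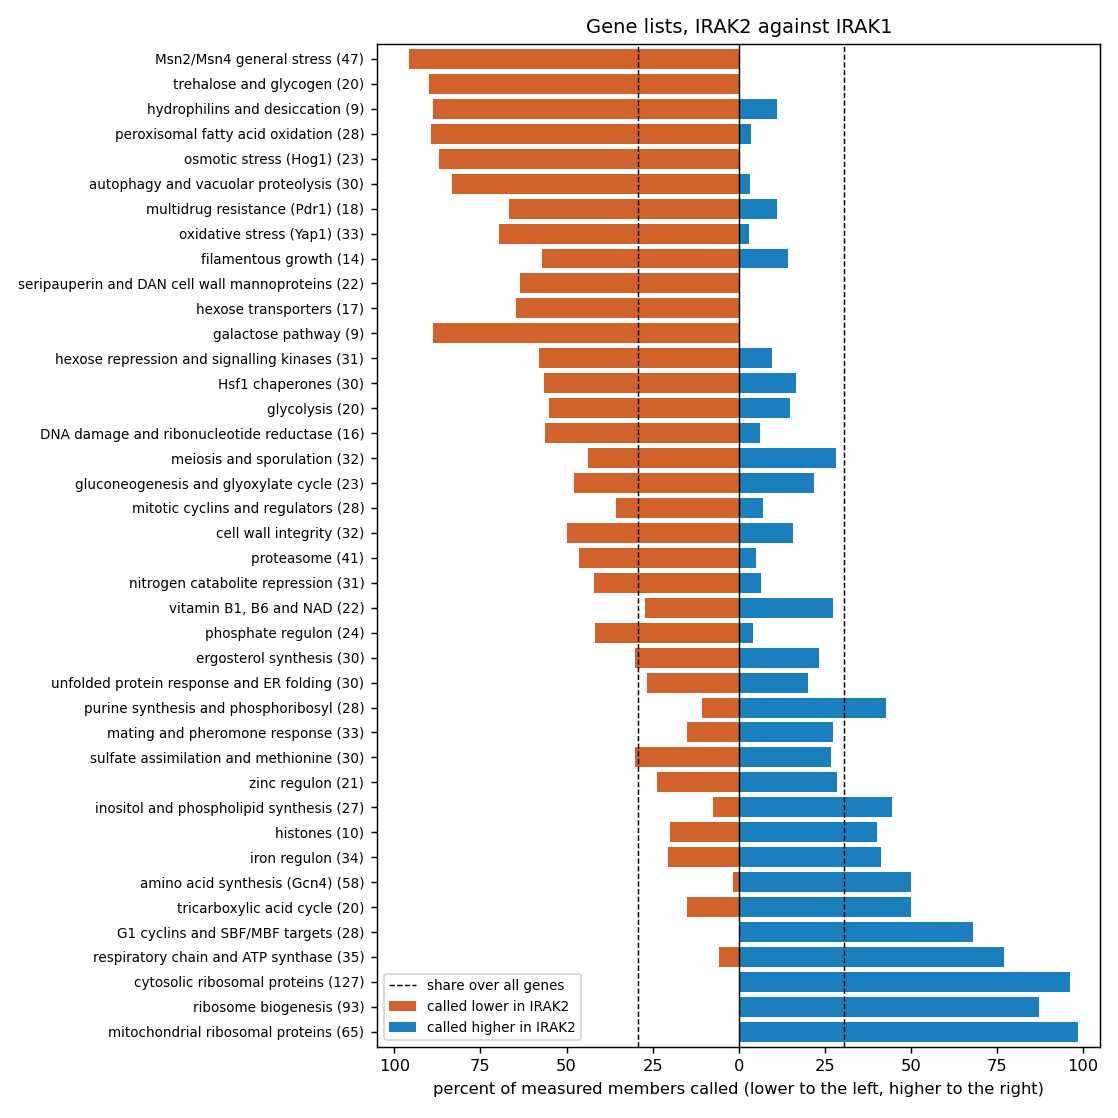
Percent of the measured members (number in parentheses) of each gene list that limma called lower in IRAK2 than in IRAK1 (bars to the left) and higher (bars to the right), ordered by the list's median difference. Dashed lines mark the shares over all genes, 29.2% lower and 30.6% higher. Stress, storage carbohydrate, peroxisome and osmotic lists fill the left side, and the lists of ribosomal proteins, ribosome biogenesis and mitochondrial ribosomal proteins fill the right.

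The machinery of translation was higher in IRAK2. Of 127 cytosolic ribosomal protein genes, 122 were higher and 0 lower (median 0.62), and 123 and 0 without IRAK1 replicate 1 (median 0.51). Most changes were under 2-fold, which 13 genes passed. RPL9A, a protein of the large subunit, read 12.94, 12.84 and 12.92 in IRAK2 and 11.43, 11.32 and 12.01 in IRAK1 (1.31 ± 0.16). RPS26B of the small subunit read 12.57, 12.67 and 12.77 in IRAK2 and 10.70, 11.57 and 11.87 in IRAK1 (1.29 ± 0.21, and 0.95 without replicate 1), and RPL39 differed by 1.21 ± 0.16. RPL41A (1.5 ± 0.19) was the highest, but its probe set may match several transcripts. Against Control, 4 members were higher and 0 lower in IRAK2, or 13 and 1 without IRAK1 replicate 1 in the fit, and 1 was higher and 121 lower in IRAK1. Many ribosomal proteins have a pair of near-identical genes, so single members cannot be taken as independent.

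Ribosome biogenesis factors are the proteins that transcribe, cut and assemble ribosomal RNA. Of 93 such genes, 81 were higher in IRAK2 and 0 lower (median 0.72). Their size depended on IRAK1 replicate 1: without it 72 were higher and 1 lower, with a median of 0.36. The median distance from Control was -1.28 on IRAK1 replicate 1 and -0.36 and -0.37 on replicates 2 and 3, while the IRAK2 arrays lay between -0.04 and 0.06. DBP2, an RNA helicase, read 10.80, 10.47 and 10.55 in IRAK2 and 7.69, 9.62 and 9.77 in IRAK1 (1.58 ± 0.41 with replicate 1 and 0.91 without it). NOP56, a core protein of the particles that methylate ribosomal RNA, read 10.77 to 10.86 in IRAK2 and 9.15 to 9.97 in IRAK1 (1.23 ± 0.15). UTP5, of the small-subunit processome, differed by 1.08 ± 0.20 and NOP7, which acts in making the large subunit, by 1.07 ± 0.25, and without replicate 1 by 0.75 and 0.61.

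Of 65 genes for mitochondrial ribosomal proteins, 64 were higher in IRAK2 and 0 lower (median 0.77), and again 64 and 0 without IRAK1 replicate 1 (median 0.84). MRP20 (-0.19 ± 0.12) was the member not called. MRP2 read 10.69, 10.78 and 10.92 in IRAK2 and 9.33, 9.27 and 9.42 in IRAK1, with 10.17 to 10.38 in Control (1.45 ± 0.10). The IRAK2 arrays lay above Control and the IRAK1 arrays below it, and both distances were called (0.51 and -0.94). MRPS8 differed by 1.42 ± 0.11, RSM27 by 1.34 ± 0.10 and MRPL32 by 1.32 ± 0.07. Over the list, 14 genes were higher and 0 lower in IRAK2 than in Control (22 and 0 without IRAK1 replicate 1 in the fit), and 0 were higher and 63 lower in IRAK1 than in Control.

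**Figure D4:**
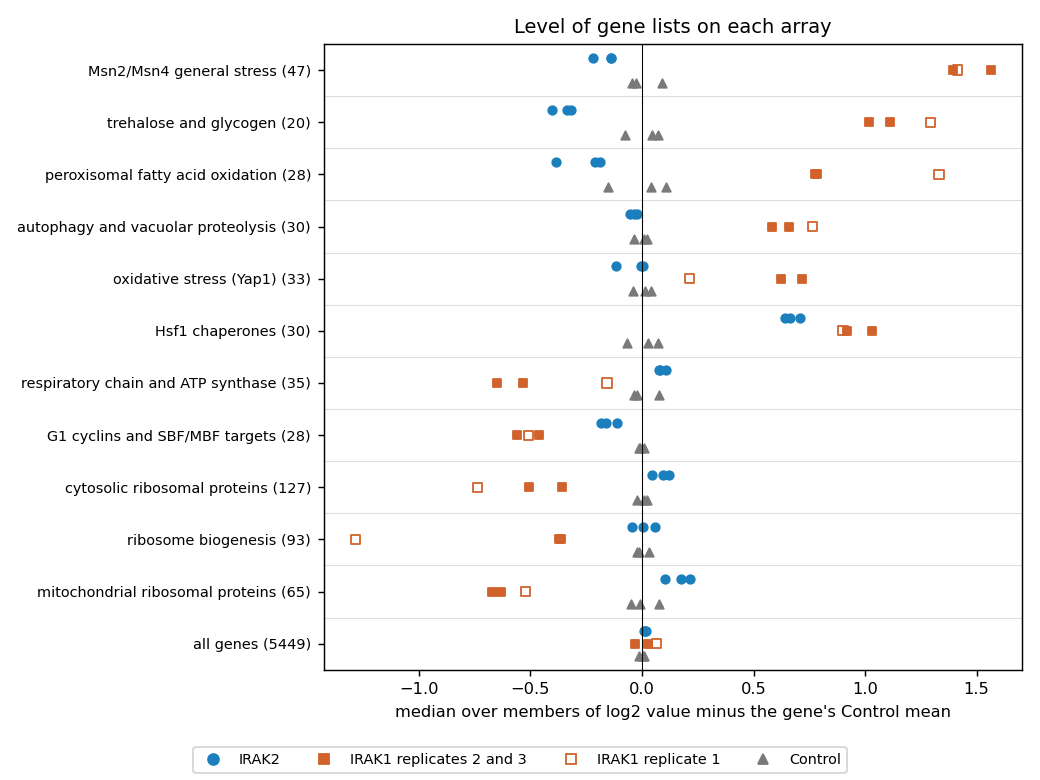
Median over the members of each gene list drawn (number in parentheses) of the log2 value minus the gene's Control mean, on each array, with IRAK2 as circles, IRAK1 as squares (replicate 1 open) and Control as triangles. In these lists IRAK2 lies between -0.40 and 0.22 except for the Hsf1 chaperones (0.64 to 0.71), and IRAK1 replicate 1 leaves the other IRAK1 arrays for ribosome biogenesis (-1.28), peroxisomal oxidation (1.33), respiration (-0.16) and the Yap1 genes (0.21).

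The iron list holds targets of Aft1, the factor that answers low iron, and of its 34 genes 14 were higher in IRAK2 and 7 lower, and without IRAK1 replicate 1, 20 and 7. FET3, the ferroxidase of high-affinity uptake, read 10.91, 10.89 and 10.69 in IRAK2 and 9.72, 8.05 and 8.38 in IRAK1, with 11.47 to 11.63 in Control (2.11 ± 0.28). Its difference was 2.61 without IRAK1 replicate 1. FIT2, a cell wall mannoprotein that holds iron-siderophore complexes, read 11.89, 11.86 and 11.72 in IRAK2 and 11.70, 9.01 and 9.01 in IRAK1. IRAK1 replicate 1 lay just under the lowest IRAK2 array, and the difference was 1.92 ± 0.48 with it and 2.81 without it. BIO5, a transporter for a biotin precursor, read 7.07 to 7.42 in IRAK2 and 9.20 to 9.87 in IRAK1 (-2.35 ± 0.18), and FRE4, a ferric reductase, read 7.04 to 7.23 in IRAK2 and 9.24 to 9.49 in IRAK1 (-2.25 ± 0.10). Against Control, 1 member was higher and 14 lower in IRAK2, or 2 and 21 without IRAK1 replicate 1 in the fit, and 5 were higher and 22 lower in IRAK1.

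Of 21 zinc genes, 6 were higher (28.6%) and 5 lower (23.8%), against 30.6% and 29.2% of all genes. The counts were 7 and 5 without IRAK1 replicate 1. IZH4, a membrane protein of zinc balance, was higher in IRAK2, at 7.84 to 7.89 against 5.92 to 6.23 in IRAK1 (1.77 ± 0.16). Of 24 phosphate genes, 1 was higher and 10 lower, and 2 and 12 without replicate 1. PHM7, a membrane protein counted in both lists and among the Msn2/Msn4 genes, read 7.81, 7.69 and 7.73 in IRAK2 and 11.34, 10.52 and 10.23 in IRAK1 (-2.95 ± 0.23). PHO92, which regulates the decay of phosphate pathway mRNA, was called lower (-1.18 ± 0.41), although IRAK1 replicate 1 (3.78) lay below the IRAK2 arrays (3.93 to 4.18), and it differed by -1.91 without that array and by -0.67, not called, without IRAK1 replicate 2. Its call also ended without IRAK2 replicate 2, IRAK2 replicate 3 or IRAK1 replicate 3. The IRAK2 values of PHO92 lay at the low end of the arrays.

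In sulfur metabolism 8 of 30 were higher (26.7%) and 9 lower (30.0%), near the 30.6% and 29.2% of all genes. The counts were 9 and 9 without IRAK1 replicate 1. SAM1 and SAM2 at the end of the methionine route were higher in IRAK2. SUL1, a sulfate permease, read 7.63, 6.76 and 7.41 in IRAK2 and 9.78, 9.84 and 9.56 in IRAK1 (-2.46 ± 0.24). MET28, a co-activator of the sulfur genes, differed by -1.39 ± 0.15. Of 58 amino acid synthesis genes, which Gcn4 activates, 29 were higher in IRAK2 and 1 lower, and 31 and 3 without replicate 1. LEU9, an isoform of the first enzyme of leucine synthesis, read 9.78, 9.90 and 9.83 in IRAK2 and 7.98, 8.38 and 8.45 in IRAK1 (1.57 ± 0.10). ASN1, an asparagine synthetase, read 12.17 to 12.29 in IRAK2 and 10.40 to 11.31 in IRAK1 (1.28 ± 0.17), GDH1, the main glutamate dehydrogenase of synthesis, differed by 0.95 ± 0.07 and LEU1 by 0.79 ± 0.13.

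Genes for poor nitrogen sources, which rich sources repress, had 13 of 31 members lower in IRAK2 and 2 higher, and 14 and 1 without IRAK1 replicate 1. Besides CHA1, GAP1, the general amino acid permease, read 9.27, 8.82 and 9.04 in IRAK2 and 11.12, 11.51 and 11.24 in IRAK1, with 9.41 to 9.93 in Control (-2.24 ± 0.15). Control lay between the kinases, and GAP1 was called in both, at -0.70 in IRAK2 and 1.54 in IRAK1. PUT4, a proline permease, differed by -1.55 ± 0.21 and GDH3, a second glutamate dehydrogenase, by -1.37 ± 0.25. Without IRAK1 replicate 1, PUT4 and GDH3 differed by -1.19 and -1.70. In purine synthesis 12 of 28 genes were higher in IRAK2 and 3 lower, and 8 and 7 without replicate 1. IMD4, an IMP dehydrogenase, read 10.36 to 10.51 in IRAK2 and 8.27 to 9.07 in IRAK1 (1.69 ± 0.16), and BAS1, the activator of the pathway, differed by 0.80 ± 0.12. Among 22 genes of vitamins B1, B6 and NAD, 6 were higher and 6 lower (27.3% each), near the 30.6% and 29.2% of all genes. The counts were 7 and 9 without replicate 1, and the number higher was 3 without IRAK1 replicate 2. THI20, a thiamine synthesis enzyme, was lower (-0.87 ± 0.14) and SNZ3, of vitamin B6 synthesis, higher (0.74 ± 0.09), though the SNZ3 probe set may match several transcripts.

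Lipid and endoplasmic reticulum genes gave mixed counts. Of 30 ergosterol genes, 7 were higher in IRAK2 (23.3%) and 9 lower (30.0%), against 30.6% and 29.2% of all genes. The counts were 8 and 11 without IRAK1 replicate 1. ERG4, which completes ergosterol, read 10.09, 10.27 and 10.15 in IRAK2 and 9.37, 8.26 and 8.31 in IRAK1 (1.52 ± 0.21), and HMG2, an HMG-CoA reductase, read 8.43 to 8.55 in IRAK2 and 9.19 to 9.60 in IRAK1 (-0.91 ± 0.10). Without IRAK1 replicate 1, ERG4 differed by 1.89. Of 27 genes of inositol and phospholipid synthesis, 12 were higher and 2 lower, and 17 and 2 without replicate 1. INO1, inositol phosphate synthase, read 11.76, 11.93 and 11.87 in IRAK2 and 11.53, 9.87 and 10.74 in IRAK1. It differed by 1.14 ± 0.27, by 1.55 without IRAK1 replicate 1 and by 0.72 without IRAK1 replicate 2. CHO1, phosphatidylserine synthase, was higher (0.72 ± 0.13) and PAH1, the phosphatidate phosphatase, lower (-0.77 ± 0.09).

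The unfolded protein response had 6 of 30 genes higher and 8 lower, and 8 and 9 without IRAK1 replicate 1, with a median of 0.06 that turned to -0.07 without it. KAR2, the Hsp70 of the endoplasmic reticulum and a usual marker of this response, read 12.18, 12.14 and 12.01 in IRAK2 and 12.41, 12.50 and 12.40 in IRAK1, with 11.30 to 11.60 in Control. Both kinases lay above Control (0.67 and 0.99) and IRAK2 below IRAK1 (-0.33 ± 0.11). Leaving out IRAK2 replicate 3 or IRAK1 replicate 2 ended the call between the kinases.

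At the cell wall, 16 of 32 genes of the integrity pathway were lower in IRAK2 and 5 higher, and 16 and 7 without IRAK1 replicate 1. SLT2, the kinase at the end of that pathway, read 9.22 to 9.28 in IRAK2 and 9.29 to 9.48 in IRAK1 and was not called (-0.16 ± 0.10). PIR3, a wall protein, read 9.02, 9.17 and 8.98 in IRAK2 and 10.93, 12.12 and 11.63 in IRAK1 (-2.50 ± 0.23). CRG1, a methyltransferase, differed by -1.48 ± 0.12 and SDP1, a stress-induced phosphatase of Slt2, by -1.20 ± 0.15. Among those higher were MID2, CIS3, SVS1 and FKS1, the glucan synthase subunit (0.92 ± 0.08).

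Of 22 seripauperins and related mannoproteins, 14 were lower in IRAK2 and 0 higher, with 1 higher at an unadjusted p under 0.05, and 15 and 0 without replicate 1. TIR3, a wall protein of cold and low oxygen, read 5.30 to 5.39 in IRAK2 and 6.31, 8.78 and 8.46 in IRAK1 (-2.50 ± 0.42 with replicate 1 and -3.27 without it). Its IRAK2 values lay at the low end of the arrays. SPI1, a wall protein of weak-acid resistance, differed by -2.28 ± 0.16 and YGP1, a secreted glycoprotein, by -1.16 ± 0.10. Seripauperin genes are near copies of each other, so their members cannot be told apart with certainty. Among 18 targets of the drug resistance factor Pdr1, 12 were lower and 2 higher with and without replicate 1. TPO4, a polyamine exporter, read 9.36 to 9.58 in IRAK2 and 10.53 to 11.04 in IRAK1 (-1.24 ± 0.12), and PDR15, a transporter, differed by -1.20 ± 0.16. YGR035C was higher in IRAK2, at 7.39 to 7.73 against 5.81 to 6.17 in IRAK1 (1.61 ± 0.17).

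The mating list had 9 of 33 genes higher in IRAK2 (27.3%) and 5 lower (15.2%), below the 30.6% and 29.2% of all genes. The counts were 10 and 9 without IRAK1 replicate 1. FUS1, the usual reporter of the pheromone pathway, read 5.95, 5.76 and 6.20 in IRAK2 and 9.68, 7.69 and 7.61 in IRAK1, with 5.63 to 5.66 in Control. Replicate 1 was the highest array, and the difference was -2.35 ± 0.39 with it and -1.68 without it. PRM8, a pheromone-regulated membrane protein, differed by -1.23 ± 0.26 (-0.82 without replicate 1) and ASG7, an a-cell gene, by -0.88 ± 0.12, while GIC2, which acts in cell polarity, was higher (0.89 ± 0.08). Of 14 filamentous growth genes, 8 were lower and 2 higher, and 6 and 2 without replicate 1. MSS11, an activator of the adhesin gene FLO11, read 6.25 to 6.73 in IRAK2 and 7.93 to 8.33 in IRAK1 (-1.59 ± 0.16). PHD1, another activator, read 8.61, 8.93 and 8.44 in IRAK2 and 9.70, 9.60 and 9.61 in IRAK1, with 9.62 to 10.03 in Control. IRAK2 was the group that stood apart in PHD1, lower than IRAK1 (-0.98 ± 0.13) and than Control (-1.21).

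Of 28 genes of the G1 cyclins and the targets of SBF and MBF, which open the cycle, 19 were higher in IRAK2 and 0 lower (median 0.34), and 18 and 0 without IRAK1 replicate 1. After HO, MCD1, a cohesin subunit, read 8.26 to 8.35 in IRAK2 and 6.80 to 7.08 in IRAK1 (1.34 ± 0.09). POL1, a DNA polymerase subunit, differed by 0.97 ± 0.08 and RNR1, the large subunit of ribonucleotide reductase, by 0.93 ± 0.12. RNR1 was called lower than Control in both kinases, by -0.58 in IRAK2 and -1.52 in IRAK1. Of 28 mitotic genes, 10 were lower in IRAK2 and 2 higher, and 7 and 1 without IRAK1 replicate 1. That count was 6 without IRAK2 replicate 3 and 16 without IRAK1 replicate 3. SIC1, an inhibitor of the cyclin-dependent kinase, was lower (-0.62 ± 0.11), as was DBF2, a kinase of mitotic exit (-0.55 ± 0.09).

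Among 10 histone genes, 4 were higher and 2 lower, and 5 and 2 without IRAK1 replicate 1. HTB2, a histone H2B gene, read 10.62, 10.59 and 10.70 in IRAK2 and 9.93, 8.56 and 8.74 in IRAK1 (1.56 ± 0.24), and HHO1, the linker histone, was lower (-0.66 ± 0.12). Without IRAK1 replicate 1, HTB2 differed by 1.99. Of 16 DNA damage genes, 9 were lower and 1 higher with and without replicate 1. RNR3, the damage-induced subunit of ribonucleotide reductase, read 6.58 to 6.64 in IRAK2 and 7.40 to 8.15 in IRAK1 (-1.18 ± 0.13), and the member higher in IRAK2 was RNR1. Of 32 genes of meiosis and sporulation, a programme that haploid cells do not complete, 14 were lower and 9 higher, and 15 and 7 without replicate 1. DMC1, the meiotic recombinase, read 6.32, 6.38 and 6.65 in IRAK2 and 9.86, 9.57 and 9.19 in IRAK1 (-3.09 ± 0.20). IME1, the activator that opens meiosis, read 6.44 to 6.95 in IRAK2 and 9.10 to 9.49 in IRAK1, with 7.08 to 7.15 in Control (-2.58 ± 0.15). SSP1, of spore membrane formation, was higher (1.22 ± 0.21).

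IRAK1 replicate 1 decided the call of some genes. It was lost without that array for 297 genes and gained for 364. Of the lost calls, MTL1, a sensor of wall stress, had the largest difference. It read 7.43, 7.37 and 7.03 in IRAK2 and 9.22, 8.0 and 7.58 in IRAK1, with -0.99 ± 0.32 in all arrays and -0.51, not called, without replicate 1. RRT5 (0.98), NAT4, a histone acetyltransferase (0.78), YNL277W-A (0.72) and TOD6, a repressor of ribosome biogenesis genes (0.72), followed, and each fell to 0.58 or less and lost its call. In these 4 genes replicate 1 was the lowest array of all 9.

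Of the calls gained, CIS1 (YLR346C) had the largest difference. It read 6.78, 6.98 and 7.10 in IRAK2 and 6.38, 8.26 and 8.53 in IRAK1, with -0.77 ± 0.37, not called, in all arrays and -1.44 without replicate 1. PHO84, the main high-affinity phosphate transporter, read 9.01, 8.54 and 8.80 in IRAK2, and 6.78 on IRAK1 replicate 1 and 10.20 on IRAK1 replicate 2, with replicate 3 close to replicate 2. The IRAK1 arrays thus lay on both sides of IRAK2, and the difference was -0.21 ± 0.60, not called, with replicate 1 and -1.32 without it. SRL4, ADE17, a purine synthesis enzyme, and REC102, of meiotic recombination, showed the same split, with differences of -1.19, -1.11 and -1.08 without replicate 1.

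**Figure D5:**
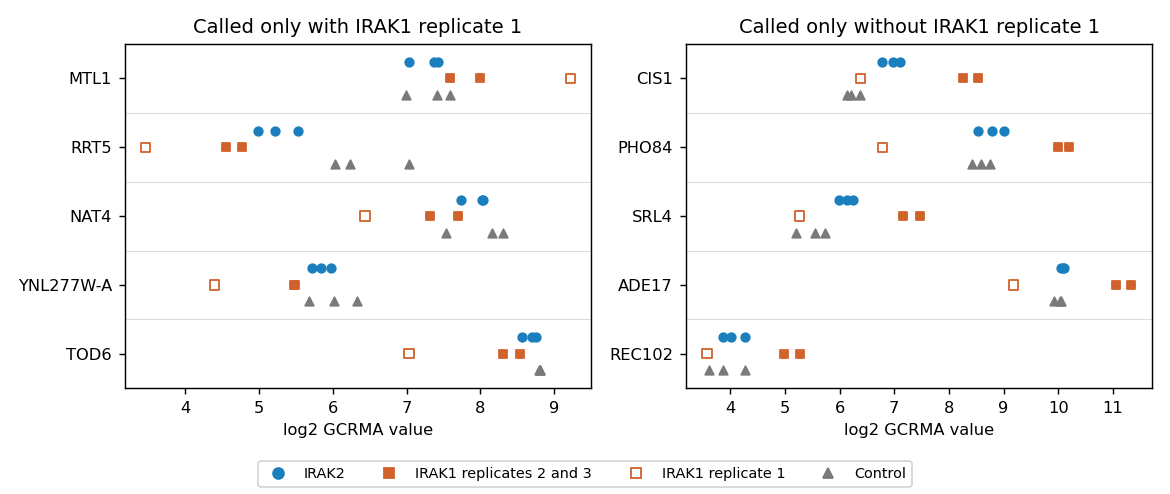
Log2 values on each array for the 5 genes with the largest difference whose call ended without IRAK1 replicate 1 (left) and the 5 called only without it (right), with IRAK2 as circles, IRAK1 as squares (replicate 1 open) and Control as triangles. On the right the open square lies on the far side of the IRAK2 circles from the filled squares, as in PHO84 with 6.78 on replicate 1 and 10.20 on replicate 2.

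In 16 genes that differed at least 2-fold the Control mean lay closer to IRAK1, 10 of them higher and 6 lower in IRAK2 than in IRAK1. Without IRAK1 replicate 1 this held for 11 genes. Apart from HXT2 and RPL41A, the genes described here were chosen after their values were seen. YDR222W, whose function is not known, read 9.43, 9.79 and 9.64 in IRAK2 and 7.44, 8.37 and 8.40 in IRAK1, with 8.57, 8.50 and 8.19 in Control (1.55 ± 0.24). It was called higher in IRAK2 than in Control by 1.20 and was not called in IRAK1 (-0.35). CAR2, ornithine transaminase of arginine breakdown, read 10.79, 10.87 and 10.96 in IRAK2 and 12.27, 11.87 and 12.10 in IRAK1, with 11.29, 11.73 and 11.89 in Control (-1.20 ± 0.16). MIG2, a repressor of glucose-repressed genes, differed by -1.10 ± 0.24, with 7.62, 7.29 and 7.62 in IRAK2, 8.98, 8.38 and 8.47 in IRAK1 and 8.02, 8.38 and 8.41 in Control. Without IRAK1 replicate 1, MIG2 differed by -0.91, under 2-fold, and YDR222W by 1.23. MIX14, a mitochondrial protein of the twin CX9C family, read 8.50, 8.61 and 8.62 in IRAK2 and 7.42, 7.33 and 7.60 in IRAK1, with 7.88 to 7.92 in Control (1.12 ± 0.09). Relative to Control, CAR2 was called in both kinases, at -0.76 in IRAK2 and 0.44 in IRAK1, and so was MIX14, at 0.68 and -0.44. MIG2 was called in neither (-0.76 in IRAK2 and 0.34 in IRAK1).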

How the data were processed

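The authors deposited log2 expression values from Affymetrix yeast arrays, normalized with GCRMA per the submitters' processing notes. No raw intensities, and no marks for absent probe sets, were used here. Of 5716 probe sets, 5498 had 1 gene, and the probe set with the highest mean over the 15 arrays stood for each of 5449 genes. One linear model with a mean for each of 5 groups was fitted in limma 3.58.1 (R 4.3.3), with Benjamini-Hochberg adjustment over all genes, and repeated without IRAK1 replicate 1. Deviations of same-numbered arrays of IRAK2 and IRAK1 correlated at -0.01, -0.16 and 0.18, and those of differently numbered arrays at -0.12 to 0.14. The numbers were not taken as pairs. Whether arrays of the same number shared a batch cannot be told from so few correlations. The members and gene lists were chosen with earlier results of these data known. The text names the 12 genes highest and the 12 lowest, up to 4 per list, 18 chosen genes, and the 5 largest calls that hung on IRAK1 replicate 1, besides genes that make up a short count. On simulated data with 5449 genes, 80.6% of changes of 0.5, 92.5% of 1 and 100% of 2 log2 units were recovered, and 4.21% of calls were false. Only 67, 67 and 66 genes were changed there, in IRAK2 alone, with normal noise of the same spread in every group. In the data 59.8% of genes were called, and the median SD was 0.0784 in IRAK2 and 0.181 in IRAK1. The simulated rates therefore need not hold for this comparison. With 3 arrays a group, precision is limited by their number. Python 3.11.15 drew the figures. One gene is not reported here.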

Additional observations from a re-analysis of the deposited data

How the results depend on the processing

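Of 3260 genes called, 561 were also at least 2-fold changed, and limma's test against a change of 1.5-fold called 583, 190 higher and 393 lower. The other alternatives called between 2333 and 3543. Leaving out 1 array at a time gave 2823 to 3327 calls, 1434 to 1779 higher and 1389 to 1650 lower. With the replicate number as a block, 3183 genes were called over all 15 arrays and 2333 over the 6 arrays, where 2549 were called without it. The share of calls that were higher was 51.1% as deposited, 52.7% with arrays centred and 55.3% after quantile normalization, with medians over all genes of 0.01, 0.03 and 0.06. Some short or mixed lists changed the sign of their median. The unfolded protein response had 0.06, against -0.032 with array weights and -0.070 to 0.087 without 1 array. The a-cell markers had 0.09, against -0.22 with array weights and -0.27 to 0.11 without 1 array. The alpha-cell markers had 0.16, against -0.68 with only genes of a mean of at least 6. That setting leaves out low markers such as AFB1 (means of 5.59 in IRAK2 and 4.80 in IRAK1), and -0.68 is the difference of SAG1 itself. The causes of the other sign changes were not tested. Of 197 named genes that were called, 174 kept call and direction under each of the 15 alternatives that held them, and 23 lost the call under at least 1. The alternative with a mean of at least 6 held 205 of the 216 named genes, so low genes were not tried under it. With the 6 arrays alone 16 of the called named genes lost the call, and ribosome biogenesis had 50 genes higher in place of 81. Values near the low end of the arrays may be close to background, which limits how low genes such as BAG7 can be read.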
